A study of Danio rerio with 11 samples.

Results

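The genes described here are 47 that license origins of DNA replication, build the replication fork, copy the DNA or supply the nucleotides for it. They were found in the count tables by their Ensembl zebrafish gene names, in any case, and by no measured value. The list itself was chosen with earlier results of these data known. All 47 names were present, on 49 of the 32105 gene IDs, because mcm6 and rrm2 each name 2 IDs. Of these 49 IDs, 45 had enough counts to be tested.

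Before a cell can copy its DNA, the origin recognition complex marks the origins, and Cdc6 and Cdt1 load the ring-shaped MCM helicase onto them, a step that geminin blocks by binding Cdt1. In S phase, Cdc45 and the GINS complex switch the loaded helicase on, polymerase alpha with primase lays down primers, and polymerases delta and epsilon extend them while held to the DNA by the PCNA ring. Most of these genes are known in vertebrates as targets of the E2F factors and are expressed mainly in cells that are cycling. Hepatocytes of the larval zebrafish still divide as the liver grows. UHRF1 is a chromatin protein that reads hemimethylated DNA behind the fork and brings the maintenance methyltransferase to it.

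The study compared livers that overexpress UHRF1 with livers of WT siblings at 5 dpf (120 hpf). hUHRF1 larvae carried Tg(fabp10a:hUHRF1-EGFP)high, in which the fabp10a promoter, active in hepatocytes, drives human UHRF1 fused to EGFP. WT larvae carried no transgene and did not fluoresce. The 5 hUHRF1 pools held 30 livers each, or 27 in clutch 6, and the 6 WT pools held 20 livers each, with 1 library per pool. Clutches 4, 6, 7, 8 and 9 gave a pool of each condition and clutch 5 gave a WT pool only. Each replicate is thus a pool of many larvae from one clutch, and larvae are not measured one by one. The labels describe a cross between carriers, whereas the methods describe a cross of carriers to WT fish and give all transgenic larvae as heterozygous. Clutches 4 to 6 and clutches 7 to 9 have titles worded differently and were treated as possible batches.

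Libraries held between 9064943 and 23322479 counts. The human transgene has no gene ID of its own in these tables, so its level could not be checked. Hepatocyte markers were abundant in every pool, although 9 of the 10 in the list were lower in hUHRF1 livers, and their summed level ranged from 35780 to 83225 CPM in hUHRF1 and from 118018 to 194386 CPM in WT pools. Here CPM is the usual depth-scaled count, with the library size corrected by TMM factors, which set the bulk of genes equal between libraries. TMM factors of all hUHRF1 pools (1.12 to 1.71) lay above those of all WT pools (0.672 to 0.978). In pooled livers, more cells that express a gene and more of its RNA per cell cannot be told apart.

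Replication genes leaned towards higher expression in hUHRF1 livers, and 11 of the 45 tested IDs passed the test, all of them higher. These 11 were mcm5, orc2, gmnn, pola1, pold1, pold2, pcna, rfc3, rpa1, lig1 and tk1. They stood for 24.4% of the tested replication genes, while 14.5% of all 15838 tested genes were called higher. None of the replication genes was called lower, against 14.6% of all tested genes. By the unadjusted p under 0.05, 21 of the 45 were higher (20.9% of all tested genes were) and only dhfr was lower. Calls are at an adjusted p below 0.05 in edgeR's quasi-likelihood test, with adjustment over all tested genes. L2FC is the fitted log2 fold change of hUHRF1 over WT. It was above 0 for 43 of the 45 IDs (95.6%, against 52.5% of all tested genes), and its median was 0.76, against 0.05 over all tested genes. The exceptions were gins4 (L2FC -0.01) and dhfr (L2FC -0.62). With libraries scaled by their size alone, 35 were called higher, but so were 52.1% of all tested genes, and gins4 and dhfr had L2FC of 0.65 and 0.14.

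**Figure D1:**
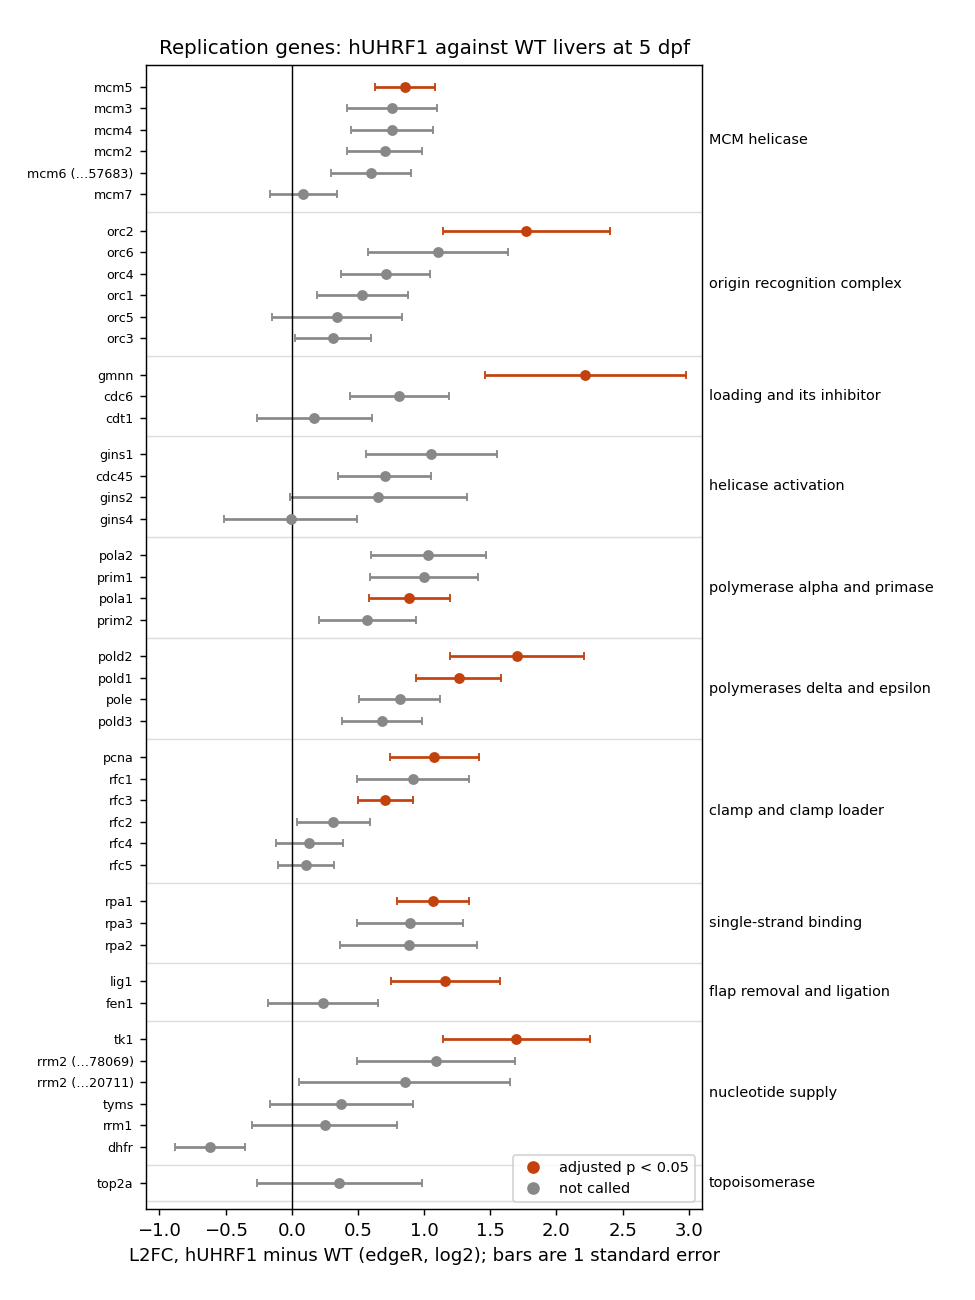
Fitted L2FC of hUHRF1 over WT for each of the 45 tested replication gene IDs, grouped by role, with bars of 1 standard error, back-calculated from the test statistic. Orange points mark the 11 genes called at an adjusted p under 0.05, all to the right of 0, and only gins4 and dhfr lie to the left of it.

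Conditions overlapped for most of these genes. Every hUHRF1 pool was above every WT pool for 3 of the 45 IDs, rpa1, lig1 and tk1 (6.67%), while 8.05% of all tested genes showed this pattern, so the share was near that of genes in general. Within clutches, 15 of the 45 IDs (33.3%) exceeded the WT pool in each of the 5 clutches with both conditions, against 20.8% of all tested genes. At least 4 of the 5 clutches showed the higher value in hUHRF1 for 29 IDs (64.4%), against 38.1% of all tested genes.

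The 5 clutches differed in how far apart their pools were. In clutch 7 the median log2 difference between the hUHRF1 and the WT pool was 1.54 over the 45 IDs, and 44 of them were higher in hUHRF1. In clutch 8 the median difference was 1.12, with 43 higher, and in clutch 4 it was 0.87, with 40 higher. Clutches 6 and 9 showed almost no such difference. Their medians were 0.10 and 0.04 on the log2 scale, with 26 and 23 of the 45 IDs higher in hUHRF1. Over all tested genes the median difference within a clutch lay between -0.01 and 0.08. Clutches 6 and 9 belong to different groups of clutches, so the split between clutches did not follow the wording of the titles. Whether it followed another possible batch, such as the sequencer, was not tested.

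**Figure D2:**
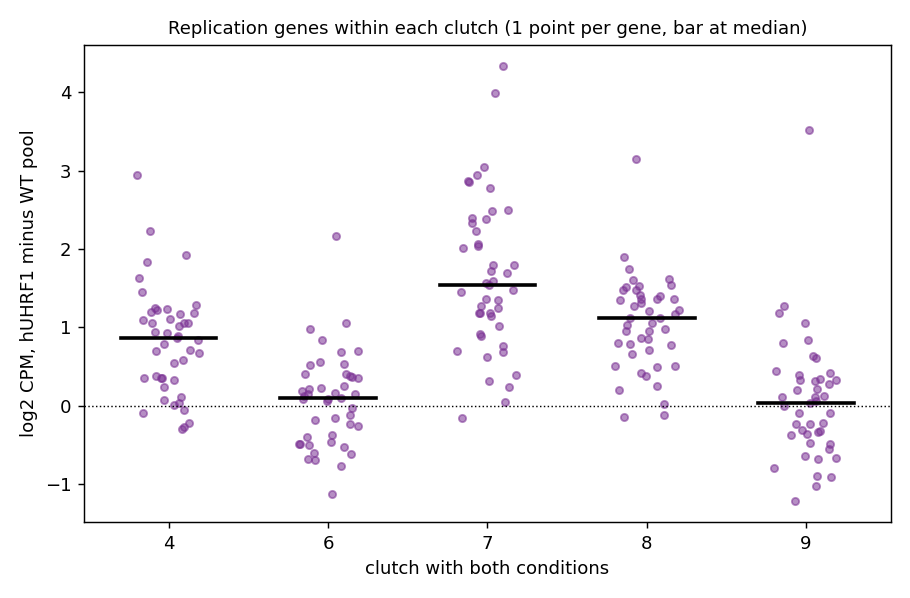
Log2 CPM of the hUHRF1 pool minus that of the WT pool within each of the 5 clutches with both conditions, with 1 point per tested replication gene ID and a bar at the median. The points of clutches 4, 7 and 8 lie mostly above 0, with medians of 0.87, 1.54 and 1.12, and those of clutches 6 and 9 spread on both sides of 0, with medians of 0.10 and 0.04.

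The clutches differed above all in the level of their WT pools. With gmnn left out, since 1 hUHRF1 pool was far above the others in it, the summed level of the replication genes was 333, 437, 410, 400 and 360 CPM in the hUHRF1 pools of clutches 4, 6, 7, 8 and 9. In the WT pools of clutches 4 to 9, in that order, it was 189, 177, 427, 163, 201 and 364 CPM. The WT pools of clutches 6 and 9 thus reached the level of the hUHRF1 pools, and the other 4 WT pools lay below all of them. The SD of the log2 sum was 0.59 between the 6 WT pools and 0.16 between the 5 hUHRF1 pools, a range of 2.62-fold against 1.31-fold. With gmnn included, the SD was 0.55 between WT and 0.29 between hUHRF1 pools, with ranges of 2.35-fold and 1.76-fold.

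The same WT pools stood out gene by gene. The pool of clutch 6 was the highest WT pool for 25 of the 45 IDs and the pool of clutch 9 for 16, whereas over all tested genes each was the highest for 17.7% and 14.2%. The lowest WT pool was that of clutch 7 for 17 IDs, of clutch 5 for 14 and of clutch 4 for 8. Over all tested genes these pools were the lowest for 20.9%, 19.0% and 13.3%, in that order. The median biological coefficient of variation, edgeR's estimate of the spread between pools of a condition, was 0.424 over the replication genes and 0.336 over all tested genes. By condition, their median SD of log2 CPM was 0.72 in WT pools, against 0.44 over all tested genes. In hUHRF1 pools it was 0.43, the same as over all tested genes.

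The spread between WT pools differed widely from gene to gene. Of the IDs with counts in every WT pool, the rrm2 ID ENSDARG00000020711 had the widest range, 54.8-fold, and it is described with the other rrm2 ID. top2a ranged 29.1-fold from 1.56 to 45.3 CPM, rrm1, the large subunit of ribonucleotide reductase, 28.5-fold from 0.876 to 24.9 CPM, and tyms, thymidylate synthase, 24.6-fold from 0.329 to 8.08 CPM. In the WT pool of clutch 7, the lowest for top2a and rrm1, these rested on 16 and 9 counts. In that of clutch 5, the lowest for this rrm2 ID and tyms, the values rested on 4 and 5 counts. The smallest WT ranges were those of rfc3 (1.48-fold) and rfc4 (1.70-fold).

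Genes of mitosis varied between the WT pools in the same order at both ends. Summed over 17 of them, such as mki67, cdk1 and plk1, the level was 77.3, 17.5, 189, 15.4, 70.1 and 137 CPM in the WT pools of clutches 4 to 9, and 104, 177, 68.9, 118 and 120 CPM in the hUHRF1 pools of clutches 4, 6, 7, 8 and 9. Of the 17 tested, edgeR called 0, and 0 had an unadjusted p under 0.05, although 16 had an L2FC above 0 and the median was 0.52. Over all tested genes 14.5% were called higher, 52.5% had an L2FC above 0 and the median was 0.05. The fit with clutch as a block called 1 of the mitosis genes higher (17.1% of all tested genes were).

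**Figure D3:**
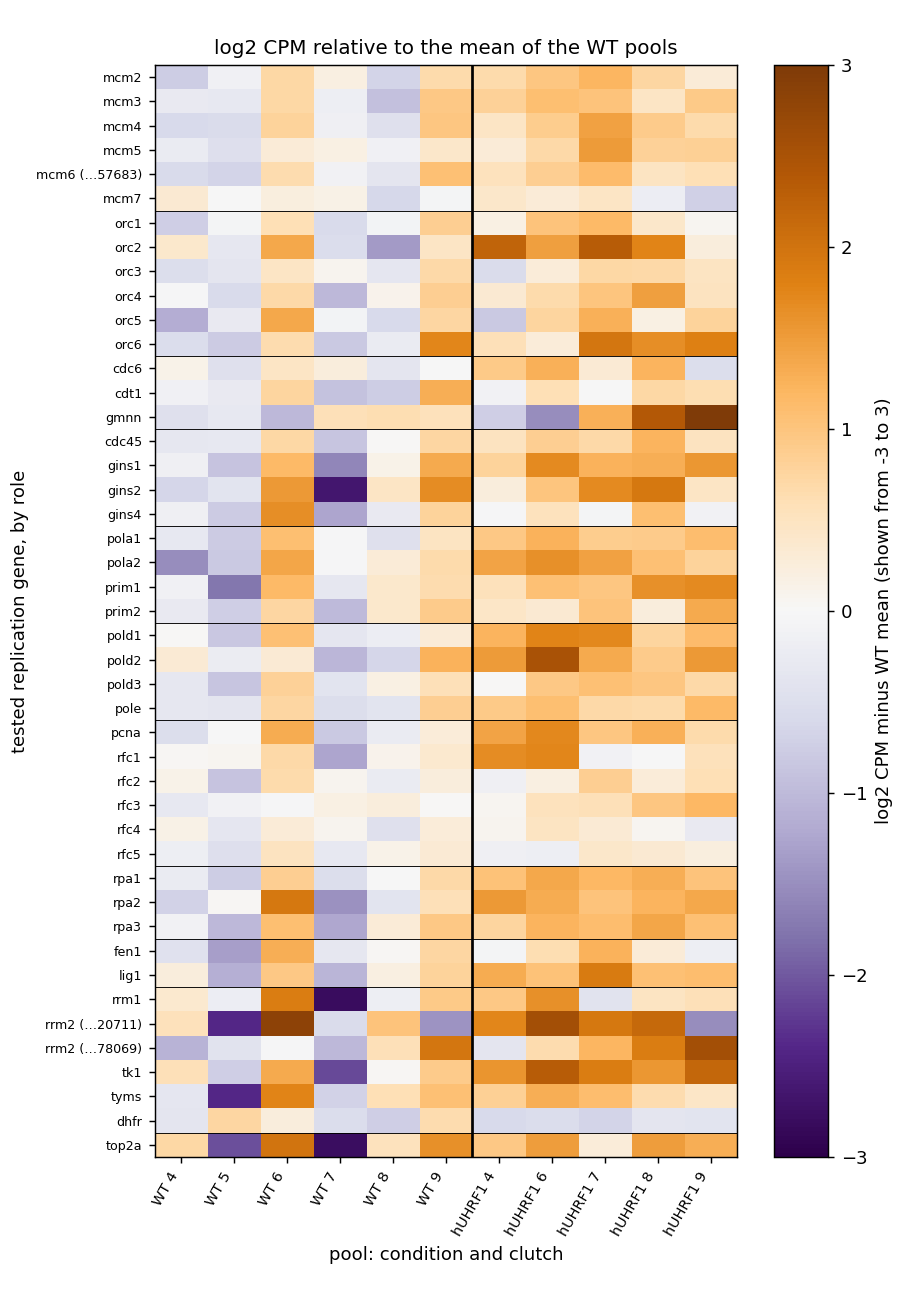
Log2 CPM of each tested replication gene ID (rows, grouped by role) in each of the 11 pools (columns), minus its mean over the 6 WT pools, with colours cut at -3 and 3. The WT columns of clutches 6 and 9 resemble the hUHRF1 columns, and those of clutches 5 and 7 hold most of the darkest purple cells, the lowest values.

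The call of a gene depended on which pools entered the comparison. Leaving out each library in turn gave between 5 and 18 called replication genes. Without the WT pool of clutch 6 there were 18, and without that of clutch 9 there were 16, in each case with 9 of the 11 genes among them. Each of the other 9 omissions gave 5 to 8. Over all tested genes the share called higher was 14.4% and 12.8% without those WT pools and 12.1% to 13.2% with the other omissions. The genes mcm5, pold1 and rpa1, were called with every single library left out. Without the WT pool of clutch 8, dhfr was called lower (L2FC -0.74, edgeR adjusted p = 0.042). Of clutches 4 to 6 alone, with 2 hUHRF1 pools against 3 WT pools, edgeR called 1 gene, rfc1, and of clutches 7 to 9 alone it called 6, gmnn, mcm5, pcna, pold1, prim1 and rpa1. These were 1 of 48 and 6 of 44 tested IDs, against 4.72% and 7.71% of all genes called higher in the same fits, and rfc1 and prim1 are named here after their values were seen.

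With clutch fitted as a replicate block, again 11 of the 45 IDs were called, all higher (17.1% of all tested genes were), and 8 were shared with the fit without it. orc2, gmnn and lig1 were lost, with edgeR adjusted p of 0.10, 0.16 and 0.093. Their L2FC with the block were 1.69, 1.02 and 1.01, against 1.77, 2.22 and 1.16 without it. prim1, pole and the rrm2 ID ENSDARG00000078069 were gained, with adjusted p of 0.028, 0.026 and 0.012.

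Counts by role group are read beside all tested genes, of which 14.5% were called higher and 52.5% had an L2FC above 0. Of all tested genes, 20.8% were higher in hUHRF1 in all 5 clutches. The MCM helicase, the ring that unwinds the DNA, had 1 called member of 6 tested (16.7%, near the share of all tested genes), and all 6 had an L2FC above 0. mcm5 encodes one of its subunits. It stood at 16.9, 22.1, 39.2, 24.2 and 24.4 CPM in the hUHRF1 pools of clutches 4, 6, 7, 8 and 9, and 9.73 to 18.2 CPM in WT pools, with a median of 13.9. Only the WT pool of clutch 9 reached the lowest hUHRF1 pool. The means were 25.3 ± 8.33 (SD, n = 5) and 14.0 ± 3.32 CPM (SD, n = 6), with an L2FC of 0.85 (SE 0.23, edgeR adjusted p = 0.012).

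The other subunits moved less clearly. mcm2, mcm3, mcm4 and the tested mcm6 ID had L2FC between 0.60 and 0.76 with edgeR adjusted p between 0.076 and 0.16, each higher in hUHRF1 in every clutch but clutch 9. mcm7 had an L2FC of 0.09, and 6 of 6 WT pools were at or above its lowest hUHRF1 pool. Whether mcm7 differs from mcm5 in its response was not tested. The second mcm6 ID, ENSDARG00000033231, held 7 counts over all hUHRF1 and 4 over all WT pools and was not tested.

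Of the 6 subunits of the origin recognition complex, orc1 to orc6, orc2 was called, and all 6 had an L2FC above 0. orc2 was a gene of few reads. Its level was 1.36, 0.759, 1.48, 0.961 and 0.253 CPM in the hUHRF1 pools of clutches 4, 6, 7, 8 and 9, and 0 to 0.702 CPM in WT pools, with a median of 0.213. The WT pools held between 0 and 16 counts of it, and 3 of them were at or above the lowest hUHRF1 pool, that of clutch 9. The L2FC was 1.77 (SE 0.63, edgeR adjusted p = 0.048), the call held in 1 of 10 fits with a library left out, and without the WT pool of clutch 6 the gene was too low to test.

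orc3 had the highest average level of the complex. It stood at 3.98, 7.14, 9.82, 9.61 and 8.26 CPM in hUHRF1 and at 4.12 to 9.59 CPM, with a median of 5.48, in WT pools, and the conditions overlapped throughout. Its L2FC was 0.31 (edgeR adjusted p = 0.44). orc1, orc4 and orc5 had L2FC between 0.34 and 0.71 and were not called. Nor was orc6, with means of 3.16 ± 1.51 (SD, n = 5) and 1.45 ± 1.35 CPM (SD, n = 6).

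Of the 3 genes that control loading, gmnn was called and cdc6 (L2FC 0.81) and cdt1 (L2FC 0.17) were not. gmnn encodes geminin, the inhibitor of Cdt1. Its level was 8.65, 5.01, 35.2, 75.5 and 243 CPM in the hUHRF1 pools of clutches 4, 6, 7, 8 and 9, and 10.4, 11.8, 7.11, 21.7, 22.4 and 21.2 CPM in the WT pools of clutches 4 to 9. The hUHRF1 pool of clutch 9 was above all other pools, and those of clutches 4 and 6 were below the WT pool of their own clutch. On the log2 scale the differences within clutches 4, 6, 7, 8 and 9 were -0.27, -0.50, 0.69, 1.74 and 3.51.

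The fitted L2FC of gmnn was 2.22 (SE 0.76, edgeR adjusted p = 0.041), whereas the exact permutation test of its mean log2 CPM over the 462 splits of the pools, two-sided, gave p = 0.30. When the hUHRF1 pool of clutch 9 was left out, gmnn had an L2FC of 0.97 (adjusted p = 0.26), and the call held in 3 of the 11 fits with a library left out. With clutch as a replicate block it was 1.02. Clutches 7 to 9 had higher gmnn than clutches 4 to 6 with condition in the fit (L2FC 2.38, edgeR adjusted p = 0.043), a call made higher for 3.93% of all tested genes. In clutches 4 to 6 alone the L2FC between conditions was -0.54. The difference in the hUHRF1 effect between the groups of clutches was called by edgeR for 0 of the 45 IDs and 0 of all tested genes, and by the unadjusted p under 0.05 for gmnn alone of the 45, against 3.81% of all tested genes. The other 10 called genes had unadjusted two-sided exact permutation p-values between 0.0065 and 0.022, among 45 such tests, and the splits behind these tests ignore the clutch pairs.

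**Figure D4:**
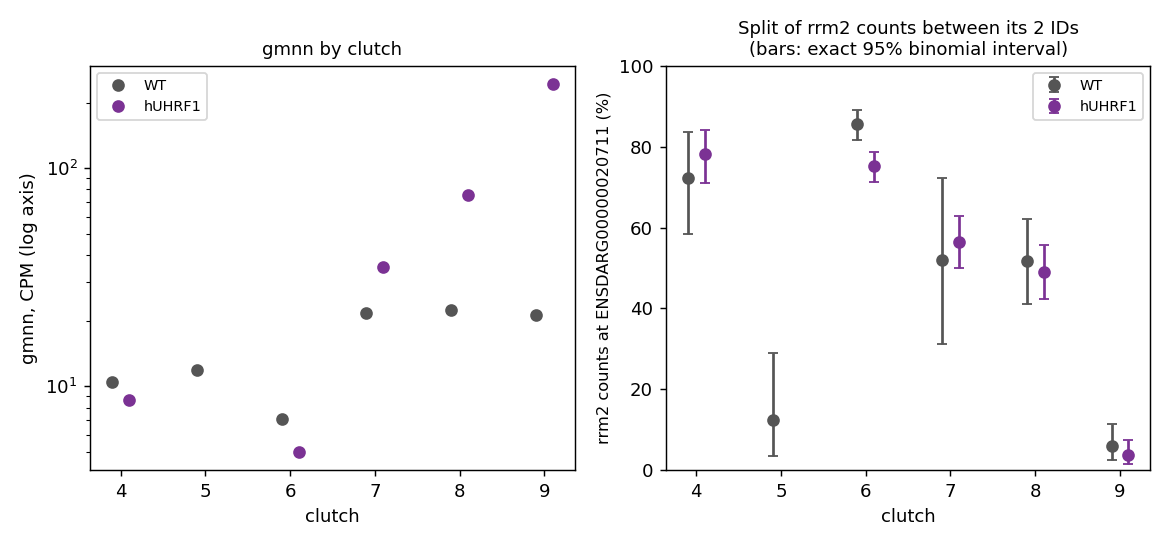
Left, gmnn in CPM on a log axis for each pool by clutch, with WT in grey and hUHRF1 in purple: the hUHRF1 pool rises above the WT pool in clutches 7 to 9, up to 243 CPM, and lies below it in clutches 4 and 6. Right, the percentage of rrm2 counts held by the ID ENSDARG00000020711 with its exact binomial interval: it moves with the clutch, from 85.6% in the WT pool of clutch 6 to 3.72% in the hUHRF1 pool of clutch 9, and differs less between the 2 conditions of a clutch than between clutches 6 and 9.

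Of the genes that switch the helicase on, cdc45, gins1, gins2 and gins4 were tested and edgeR called 0, with 0 under an unadjusted p of 0.05. gins1, a subunit of the GINS complex, had the smallest p-value of these. It stood at 1.52, 2.98, 2.16, 2.24 and 2.70 CPM in hUHRF1 pools and at 0.195 to 2.30 CPM, with a median of 0.830, in WT pools. The WT pools of clutches 6 and 9 were within the hUHRF1 range and the other 4 below it. Its L2FC was 1.06 (SE 0.50, edgeR adjusted p = 0.13), and it was higher in hUHRF1 in 5 of 5 clutches.

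gins4, another subunit of GINS, had the highest average log2 CPM of the group over all pools and showed no shift. It was at 1.52, 2.31, 1.48, 3.44 and 1.43 CPM in hUHRF1 and at 0.584 to 5.18 CPM, with a median of 1.33, in WT pools. Its L2FC of -0.01 (SE 0.50) leaves room for a change in either direction, and it was 0.55 without the WT pool of clutch 6. mcm10 and gins3, also of this group, did not pass the filter, with 104 and 60 counts in hUHRF1 against 43 and 37 in WT pools. mcm10 was called higher by DESeq2 and by edgeR without the hUHRF1 pool of clutch 7, but not by edgeR with no filter.

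Polymerase alpha and primase, which make the primers, had 1 called gene of 4. pola1, the catalytic subunit of polymerase alpha, was at 8.39, 10.4, 8.01, 8.16 and 9.44 CPM in hUHRF1 and at 2.43 to 9.35 CPM, with a median of 3.82, in WT pools. The hUHRF1 pools lay close together and only the WT pool of clutch 6 reached them. The means were 8.87 ± 1.0 (SD, n = 5) and 4.76 ± 2.56 CPM (SD, n = 6), with an L2FC of 0.89 (SE 0.30, edgeR adjusted p = 0.042). Without the WT pool of clutch 6 the L2FC was 1.21 (adjusted p = 0.0033), and the call was lost with 9 of the 11 omissions, with adjusted p up to 0.088. pola2, prim1 and prim2 had L2FC between 0.57 and 1.03 and were not called.

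Polymerases delta and epsilon, which extend the primers, had 2 called genes of 4, and all 4 were higher in hUHRF1 in all 5 clutches (20.8% of all tested genes were). pold1 encodes the catalytic subunit of polymerase delta. It stood at 8.60, 12.5, 12.2, 6.16 and 8.01 CPM in hUHRF1 and at 1.97 to 7.64 CPM, with a median of 3.36, in WT pools, where only clutch 6 reached the lowest hUHRF1 pool. Its L2FC was 1.26 (SE 0.32, edgeR adjusted p = 0.0092).

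pold2 encodes a small subunit of the same enzyme and had few reads. Its level was 1.15, 2.40, 1.02, 0.720 and 1.18 CPM in hUHRF1 and 0.0974 to 0.951 CPM, with a median of 0.351, in WT pools, from 1 to 12 counts each. The L2FC was 1.70 (SE 0.51, edgeR adjusted p = 0.021), and without the hUHRF1 pool of clutch 6 it was 1.34 (adjusted p = 0.081).

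pold3 had the highest average log2 CPM of the group over all pools. It was at 5.40, 10.5, 11.4, 10.6 and 8.76 CPM in hUHRF1 and at 2.89 to 9.39 CPM, with a median of 5.16, in WT pools. Of these WT pools, 3 were at or above the lowest hUHRF1 pool. The L2FC of pold3 was 0.68 (edgeR adjusted p = 0.11). pole, the catalytic subunit of polymerase epsilon, had an L2FC of 0.82 (adjusted p = 0.059). pole2, its second subunit, did not pass the filter, with 53 counts in hUHRF1 and 30 in WT pools.

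The clamp pcna and the clamp loader rfc1 to rfc5 had 2 called genes of 6. pcna encodes the ring that holds the polymerases on the DNA and had the highest average log2 CPM of the group. It was at 54.4, 67.6, 40.2, 49.2 and 32.2 CPM in hUHRF1 and at 14.2, 20.0, 50.8, 11.5, 17.1 and 24.5 CPM in the WT pools of clutches 4 to 9. Of the WT pools, only that of clutch 6 reached the hUHRF1 range. The means were 48.7 ± 13.6 (SD, n = 5) and 23.0 ± 14.3 CPM (SD, n = 6), with an L2FC of 1.08 (SE 0.34, edgeR adjusted p = 0.027). The call was lost without the hUHRF1 pool of clutch 4 or 6 or the WT pool of clutch 4, 5 or 8, with L2FC between 0.93 and 1.04 and adjusted p up to 0.070. Without the WT pool of clutch 6 the L2FC was 1.47 (adjusted p = 0.00087).

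rfc3, a small subunit of the clamp loader, had the narrowest WT range of the tested replication genes, given above. It was at 8.39, 11.7, 12.1, 15.9 and 18.5 CPM in hUHRF1 and at 6.54 to 9.67 CPM, with a median of 7.99, in WT pools, 2 of which were above the hUHRF1 pool of clutch 4. The fit gave an L2FC of 0.71 (SE 0.21, edgeR adjusted p = 0.020), and its adjusted p was 0.053 and 0.060 without the hUHRF1 pool of clutch 8 or 9. rfc2, rfc4 and rfc5, the other small subunits, had L2FC between 0.10 and 0.31 (edgeR adjusted p between 0.42 and 0.74), and rfc1, the large subunit, had 0.92 (adjusted p = 0.12).

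Replication protein A coats the single strands at the fork, and rpa1 encodes its large subunit. rpa1 was at 24.7, 31.3, 27.3, 29.7 and 24.4 CPM in hUHRF1 and at 10.1, 7.03, 21.8, 8.38, 11.9 and 19.4 CPM in the WT pools of clutches 4 to 9. The conditions did not overlap, and the nearest WT pools were again those of clutches 6 and 9. The means were 27.5 ± 3.02 (SD, n = 5) and 13.1 ± 6.08 CPM (SD, n = 6), with an L2FC of 1.07 (SE 0.27, edgeR adjusted p = 0.0092). rpa2 and rpa3, the smaller subunits, had L2FC of 0.88 and 0.89 and were not called. The WT pool of clutch 6 was the only one to reach the lowest hUHRF1 pool for rpa2.

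**Figure D5:**
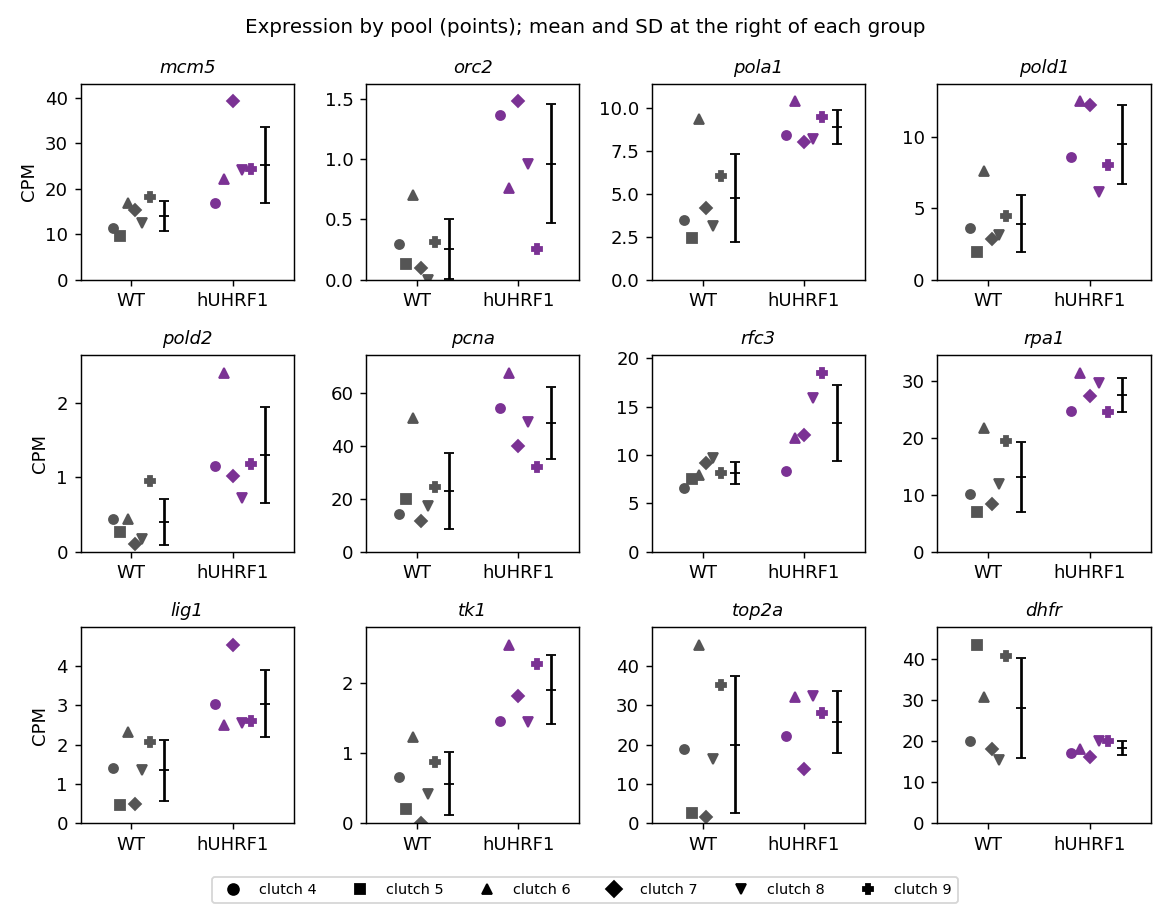
CPM of 10 called genes and of top2a and dhfr in every pool, with 1 symbol per clutch, WT in grey and hUHRF1 in purple, and the mean with its SD at the right of each group. In the panels of mcm5, pola1, pold1, pcna, rpa1, lig1 and tk1 the hUHRF1 pools lie above at least 4 of the WT pools. There the WT pools of clutches 6 and 9 are nearest to them or among them. For rfc3 the highest WT pools are those of clutches 7 and 8. For orc2, 3 WT pools reach the lowest hUHRF1 pool. In the panel of dhfr the hUHRF1 pools lie between 16.2 and 20.1 CPM, at the lower end of the WT range of 15.4 to 43.5 CPM.

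Of the pair that finishes the lagging strand, the flap nuclease fen1 and DNA ligase lig1, lig1 was called. lig1 was at 3.04, 2.49, 4.54, 2.56 and 2.61 CPM in hUHRF1 and at 0.460 to 2.33 CPM, with a median of 1.37, in WT pools, with no overlap. Its L2FC was 1.16 (SE 0.41, edgeR adjusted p = 0.048). The call held in 2 of the 11 fits with a library left out, those without the WT pool of clutch 6 (L2FC 1.40) or 9 (L2FC 1.31). In the other 9 the adjusted p was 0.062 to 0.12. fen1 was at 4.93, 7.90, 12.3, 6.32 and 4.55 CPM in hUHRF1 and at 1.97 to 12.8 CPM, with a median of 4.69, in WT pools. These overlapped throughout, and its L2FC was 0.24 (SE 0.42, adjusted p = 0.70).

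Of the 6 tested IDs for nucleotide supply, 1 was called, tk1, and 5 had an L2FC above 0. tk1, the thymidine kinase of cycling cells, was at 1.47, 2.55, 1.82, 1.44 and 2.28 CPM in hUHRF1 and at 0 to 1.23 CPM, with a median of 0.541, in WT pools, where it had 0 to 28 counts. The conditions did not overlap. Its L2FC was 1.70 (SE 0.56, edgeR adjusted p = 0.034). The call was lost without the hUHRF1 pool of clutch 6, 7 or 9 or the WT pool of clutch 5 or 8, with L2FC between 1.52 and 1.71 and adjusted p between 0.054 and 0.078.

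dhfr, dihydrofolate reductase, had the lowest L2FC of the tested IDs and was not called. It was at 17.2, 18.1, 16.2, 20.1 and 20.0 CPM in hUHRF1 and at 15.4 to 43.5 CPM, with a median of 25.5, in WT pools. The hUHRF1 pools lay within the lower part of the WT range. Its L2FC was -0.62 (SE 0.26, edgeR adjusted p = 0.092), and it was higher in hUHRF1 in 1 of 5 clutches. The sign of this value depends on the scaling, since it was 0.14 when libraries were scaled by their size alone. rrm1 and tyms, with L2FC of 0.25 and 0.37, were not called.

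rrm2, the small subunit of ribonucleotide reductase, has 2 IDs with this name, and their shares differed more between clutches than between the conditions of a clutch. ENSDARG00000020711 held 78.2% of the rrm2 counts in the hUHRF1 pool of clutch 4 (exact 95% binomial interval 71.1% to 84.2%) and 72.2% in its WT pool (58.4% to 83.5%). In clutch 6 it held 75.1% (71.2% to 78.8%) and 85.6% (81.7% to 89.0%), in that order, and these intervals did not overlap. In clutch 9 it held 3.72% (1.51% to 7.52%) and 5.97% (2.61% to 11.4%). Clutches 7 and 8 lay between, from 48.9% to 56.5%, and the WT pool of clutch 5 was at 12.5% (3.51% to 29.0%) of 32 counts. These intervals cover counting error only. RefSeq's gene table gives rrm2 as a synonym of both rrm2b and rrm2l. In the count tables the name rrm2b has an ID of its own (L2FC -0.19, edgeR adjusted p = 0.55). Whether the rrm2 IDs are similar in sequence, and whether reads common to both bear on their shares, was not tested.

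As both IDs carry the name rrm2, they were also summed. Their sum was 14.4 ± 3.63 CPM (SD, n = 5) in hUHRF1 and 7.29 ± 5.72 CPM (SD, n = 6) in WT pools, with an L2FC of 0.97 (SE 0.45, edgeR adjusted p = 0.12). It passed with clutch as a replicate block (L2FC 0.996, SE 0.31, adjusted p = 0.029).

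top2a, the topoisomerase that untangles replicated chromosomes, was at 22.3, 32.2, 13.8, 32.4 and 28.1 CPM in hUHRF1 and at 18.8, 2.63, 45.3, 1.56, 16.4 and 35.2 CPM in the WT pools of clutches 4 to 9. The WT pools of clutches 6 and 9 were above every hUHRF1 pool and those of clutches 5 and 7 far below. Its L2FC was 0.36 (SE 0.62, edgeR adjusted p = 0.70).

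Other genes of the replication machinery leaned the same way. A list of 42 accessory names held regulators, chromatin assembly factors, lagging-strand enzymes and further enzymes of nucleotide supply. Of these, 35 were found and 29 tested. edgeR called 7 higher (24.1%, against 14.5% of all tested genes) and 0 lower, with a median L2FC of 0.43 (0.05 over all tested genes). L2FC was above 0 for 24 of the 29 (82.8%, against 52.5% of all tested genes) and below 0 for 5. Of those below 0, top2b was at 31.4 to 36.3 CPM in hUHRF1 and at 37.7 to 42.9 CPM in WT pools, without overlap. Its L2FC was -0.26 (edgeR adjusted p = 0.13). Scaled by library size alone, 24 of the 29 were called higher, as were 52.1% of all tested genes. The 5 with the smallest p-values were tonsl (L2FC 1.68, adjusted p = 0.0033), rnaseh2b (1.07, 0.0054), rnaseh2a (1.11, 0.021), mcm9 (1.45, 0.023) and chtf18 (1.22, 0.032). TONSL works in the repair of stalled forks, RNase H2 removes ribonucleotides from DNA, MCM9 acts in recombination repair, and CHTF18 belongs to an alternative clamp loader. tonsl stood at 1.53 to 3.76 CPM in hUHRF1 and 0.504 to 1.35 CPM in WT pools, without overlap. timeless, a fork protection factor, had an L2FC of 0.05.

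Genes of the E2F and DREAM factors, which regulate replication genes, did not move one way. Of 14 tested, 2 were called higher and 3 lower, with a median L2FC of 0.25. L2FC was above 0 for 9 of the 14 (64.3%, against 52.5% of all tested genes). Over all tested genes 14.5% were called higher and 14.6% lower. rbl2, a pocket protein that represses E2F targets, rose (L2FC 0.93, edgeR adjusted p = 0.0037), as did lin52 (L2FC 0.81, adjusted p = 0.044), a DREAM subunit. lin54, its DNA-binding subunit, fell by 0.79 on the log2 scale (adjusted p = 0.013), lin9 fell by 0.83 (adjusted p = 0.022) and the E2F partner tfdp2 fell by 1.27 (adjusted p = 0.026). With libraries scaled by size alone, 7 of the 14 were called higher, near the 52.1% of all tested genes, and 0 lower. The decreases named here thus hold only relative to the bulk of genes. e2f1 itself had an L2FC of 1.17 (adjusted p = 0.12). e2f2 and e2f5 did not pass the filter, with 103 and 74 counts in hUHRF1 against 31 and 20 in WT pools.

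Markers of other cells also differed between the conditions, and their part in the values above was not tested. Over all tested genes 14.5% were called higher and 14.6% lower. Of 8 tested macrophage marker IDs 6 were called higher and 0 lower, and the list summed to 37.9 to 60.5 CPM in hUHRF1 against 10.5 to 28.7 CPM in WT pools. Only 6 of the 8 names in this list were found, and several of the IDs share the name mfap4. Of the tested IDs, the most abundant in WT pools, the mfap4 ID ENSDARG00000090557, was not called (L2FC 0.19, edgeR adjusted p = 0.69). All 4 tested markers of exocrine pancreas were called higher, with sums of 615 to 5611 against 300 to 1271 CPM. Lists of biliary, endothelial and stellate genes had 1 of 4, 2 of 5 and 1 of 5 called higher, neutrophil and muscle genes 0 of 4 and 0 of 2 by edgeR (0 and 1 by the unadjusted p under 0.05), intestinal genes 1 higher and 2 lower of 4, and erythrocyte genes 1 lower of 3. With libraries scaled by size alone, 0 intestinal and 0 erythrocyte genes were called lower. All 4 biliary, 5 endothelial, 5 stellate, 8 macrophage and 2 muscle genes were then called higher, as were 52.1% of all tested genes. The WT pools of clutches 6 and 9 held the highest pancreas sums of the WT pools, 1271 and 1000 CPM against 300 to 658 CPM in the other 4, and the lowest erythrocyte sums, 167 and 91.1 CPM against 197 to 379 CPM. Their sums of hepatocyte markers were 118018 and 163433 CPM, and their biliary sums, 920 and 1193 CPM, were the lowest of the WT pools. Among the hUHRF1 pools the order differed. That of clutch 6 held the lowest pancreas sum, 615 CPM, and the highest sum of replication genes without gmnn, 437 CPM. That of clutch 9 held the highest pancreas sum, 5611 CPM, with 360 CPM of replication genes.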

How the data were processed

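Total RNA of pooled livers was depleted of ribosomal RNA and sequenced. The methods name both a NextSeq and a HiSeq sequencer and do not say which library ran on which. The authors' alignment used HISAT2 against GRCz10, HTSeq gave reads per gene, and the deposited values are raw counts. Versions of these tools are not given in the sources used here. The analysis ran in R 4.3.3, edgeR 4.0.16 and DESeq2 1.42.0. Genes were filtered with filterByExpr (minimum count 10, minimum total 15), libraries scaled by TMM, and hUHRF1 compared with WT by the quasi-likelihood test with condition alone. Benjamini-Hochberg adjustment ran over the 15838 genes tested. Log2 CPM used a prior count of 2. Each SE of an L2FC is the size of the L2FC divided by the square root of the test's F statistic. It is thus not independent of the p-value. Within a condition each pool is from another clutch, and 5 clutches gave a pool of each condition, which the fit with condition alone ignores. Tests were checked on simulated data. The simulated counts had the same dispersion for every gene and no clutch effect. They therefore do not show how the tests behave with the spread of these pools.

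The genes and lists were chosen with earlier results of these data known. Named with values are all called genes and, in each role group, the gene with the highest average log2 CPM and that with the smallest p-value, and up to 5 called genes of the accessory and E2F lists. The uncalled genes timeless, top2b, rrm2b and e2f1, an uncalled mfap4 ID, and the untested e2f2 and e2f5 are given outside this rule. One planned accessory name, and1, was left out because in zebrafish it names an unrelated fin protein.

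After removing the mean of each condition, the log2 CPM of pools of the same clutch had correlations over genes between 0.206 and 0.481. Correlations between pools of different clutches were not set beside these, so they do not show an effect of clutch by themselves. The pairing comes from the clutch numbers in the labels. Alternatives were clutch as a replicate block, other scalings, other filters, DESeq2, a term for the group of clutches, either group by itself and each library left out. No sequences or gene lengths were used, so levels of different genes are not compared as molecules. IDs for 26269 genes carried a name.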

Additional observations from a re-analysis of the deposited data

Results flagged for a closer look

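gmnn and rfc2 moved in opposite directions in the groups of clutches, with every pair of one group on one side of 0 and every pair of the other on the other side. Both were picked by this split, so an unadjusted p from the same pools gives it no separate support. The share of all tested genes with such a split was not computed. For gmnn the L2FC in clutches 7 to 9 minus that in clutches 4 to 6 was 2.96 (SE 0.83), with an unadjusted p from edgeR's interaction test of 0.0040 and an adjusted p of 0.999. For rfc2 it was 0.65 (SE 0.54, adjusted p = 0.999). edgeR called 0 of the 15838 tested genes for this interaction (604 at an unadjusted p under 0.05), so neither difference passed adjustment. Dixon's test at its 95% critical value, on the log2 CPM of the named genes and of the sum without gmnn in each condition, flagged no pool in 38 groups of values. On that scale the hUHRF1 pool of clutch 9 did not pass for gmnn, although it was far above the others in CPM.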

How the results depend on the processing

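Scaling by library size alone changed most: 35 of the 45 IDs were called, against 52.1% of all tested genes called higher. The median L2FC was 1.49 (0.83 over all tested genes), and gins4 and dhfr had L2FC of 0.65 and 0.14. With this scaling 40 IDs were higher in all 5 clutches, for which the share over all tested genes was not computed. Without a filter on low counts 7 of 49 were called, against 7.24% of all genes called higher. Clutches 4 to 6 alone gave 1, with L2FC of -0.035 for orc3 and -0.54 for gmnn, and clutches 7 to 9 alone gave 6, with 0.42 for gins4. DESeq2 size factors gave 9, against 13.5% of all tested genes called higher. DESeq2 gave 12 of 49, against 13.1%. That percentage is over genes to which DESeq2 gave an adjusted p, and the 49 may include IDs without one. A minimum of 10 counts in every library gave 9 of 26, against 17.5%.

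With clutch as a replicate block, 11 were called (8 of them shared), and gins4 was at 0.059. A term for the group of clutches left 9 called, against 16.8% of all tested genes called higher, with gins4 at 0.057. Leaving out each library gave 5 to 18 called genes and a median L2FC of 0.66 to 0.91. The SD of the log2 sum between WT pools, with gmnn included, was then 0.44 to 0.61, against 0.55 with all WT pools. gins4 then ranged from -0.28 to 0.55, above 0 without the hUHRF1 pool of clutch 4, 7 or 9 or the WT pool of clutch 6 or 9, and fen1 from -0.048, without the hUHRF1 pool of clutch 7, to 0.60. Of 370 values of named genes under all alternatives, 13 changed sign and 74 lost their call. Only the 11 genes called in the main fit could lose a call, and the 370 values also cover named genes that were not called. The causes were not tested. Genes such as orc2, tk1 and pold2 rested on few counts per WT pool, which limits their precision. Leaving gmnn out was chosen after seeing the data and moved the median L2FC to 0.73.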
